A study of Bos taurus with 16 samples.

Results

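The 10 genes described here act in selenoprotein production and peroxide reduction, and they were followed in bovine liver. PSTK, SEPSECS, SEPHS1, SEPHS2, EEFSEC and SECISBP2 make and decode selenocysteine, and GPX1, GPX3, GPX4 and TXNRD1 encode selenium-containing enzymes. A transcript cluster, the unit of the array that gives 1 value per steer, was taken where its annotation gave exactly 1 symbol equal to a member. Each of the 10 genes had 1 such cluster, out of 26773 on the array, of which 18790 carried 1 symbol. Total RNA from the liver of 16 male crossbred steers was hybridised, 1 steer to each Affymetrix gene array, after 78 days on a high-concentrate diet containing wet distillers grains. They came from a larger feeding trial, from which animals with extreme combinations of weight gain and feed intake were picked, with health history and breed also taken into account. There were 4 steers in each of 4 groups: steers high in both traits (high gain-high intake), high gain steers that ate little (high gain-low intake), low gain steers that ate much (low gain-high intake) and steers low in both (low gain-low intake). All groups received the same diet, which also held a supplement with Tylan, and the labels name no treatment. The groups are therefore phenotypes within a mixed-breed population, and breed is not given per steer in the labels. The study harvested the steers over 4 days, 1 of each group per day, but the labels give no harvest day or kinship of the steers.

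Selenocysteine is built on its own transfer RNA and is inserted at UGA codons that would otherwise end translation, provided the messenger RNA carries a selenocysteine insertion element. The liver uses the amino acid for glutathione peroxidases, thioredoxin reductases and deiodinases, and it secretes selenoprotein P, which carries selenium to other tissues. Several selenoprotein messages are also known to be sensitive to selenium supply, GPX1 more than GPX4.

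The liver label was checked against 8 hepatocyte markers, of which 7 lay above 18 on the log2 scale in every steer and APOA1 lay between 7.97 and 10.09. The array medians formed 2 clusters, and the arrays were divided at the widest gap into set 1 (8 arrays, medians of 7.41 to 7.47) and set 2 (8 arrays, medians of 7.16 to 7.28), a division for which the labels give no name. In order of animal number, set 1 was the first 8 arrays and set 2 the last 8. Set 1 held 1, 2, 2 and 3 steers of the 4 groups in the order given above, and set 2 held 3, 2, 2 and 1. Steers are numbered 1 to 4 within a group by animal number, and every value below is a deposited log2 value, so that a difference of 1 is a doubling. A level of one gene cannot be set against that of another on this array. In whole liver, a smaller number of cells of a type and less RNA per cell cannot be told apart.

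Of the 10 genes, 2 differed with a phenotype at the nominal threshold of the study, an unadjusted p of 0.05 or less, which is what "called" means here. PSTK was lower in high intake steers, and SEPSECS was lower in high gain steers. These are consecutive enzymes of selenocysteine synthesis, and each was called for one trait only. No gene passed the Benjamini-Hochberg correction over all 26773 clusters in limma, so every call stands at the nominal level. The synthesis genes were singled out in the study's own pathway analysis of these 16 arrays, so the calls are not independent evidence for the pathway. Over the 4 groups, limma's moderated F called 0 of the 10 genes, against 2.33% of all clusters. The gain contrast called 1 of 10 against 3.48% of all clusters, and the intake contrast 1 of 10 against 2.86%. The interaction called 0 of 10 against 2.81%.

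**Figure D1:**
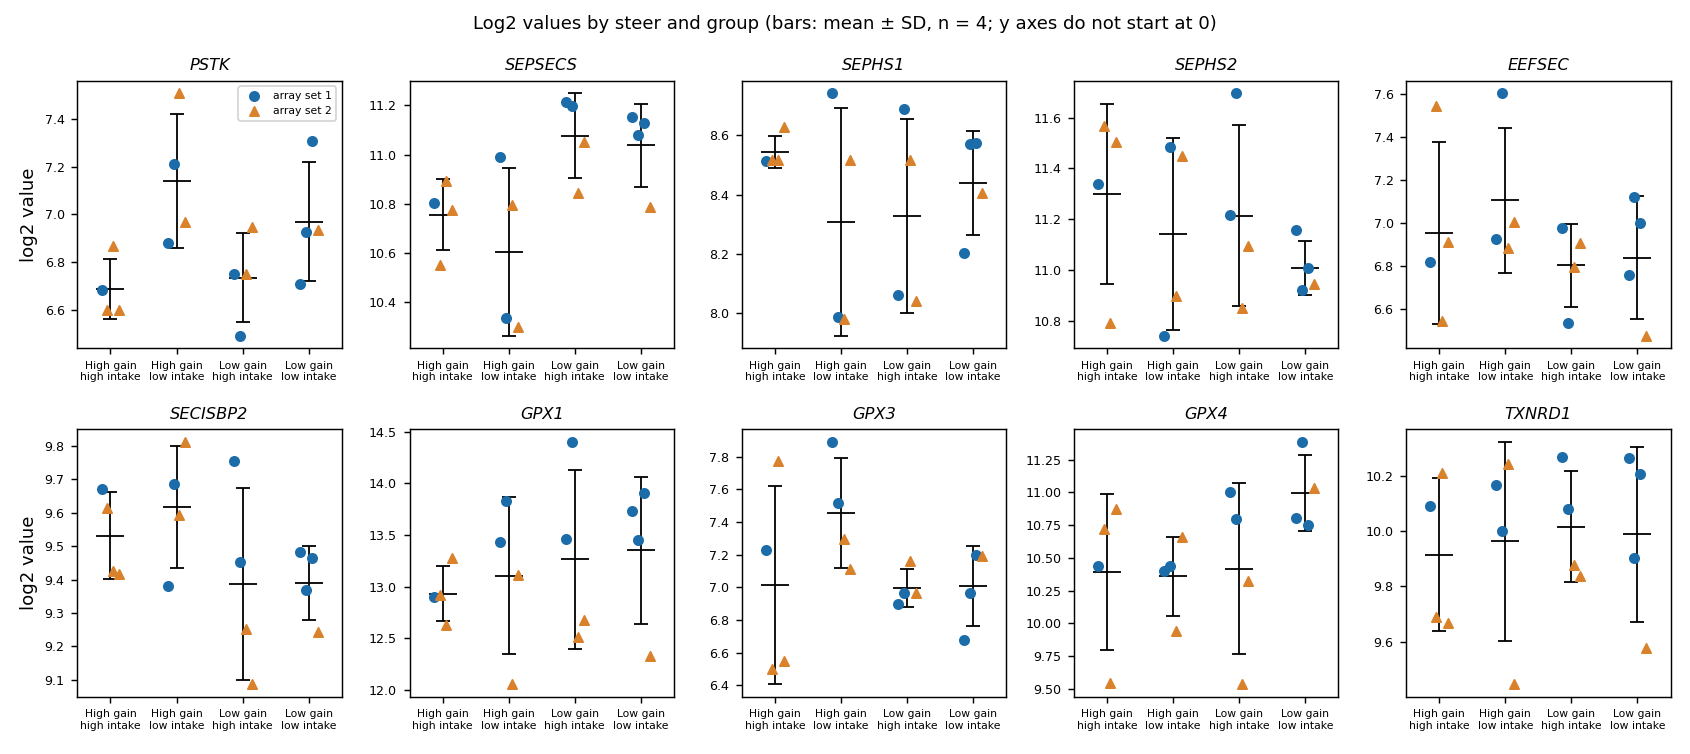
Deposited log2 value of each of the 10 genes (y axis, scaled per gene and not starting at 0) in the 4 groups (x axis), with 1 point per steer, circles for array set 1, triangles for array set 2, and bars for the mean ± SD of 4 steers. PSTK lies lower in both high intake groups, SEPSECS lower in both high gain groups, and GPX1 separates by array set within 3 of the 4 groups.

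PSTK (transcript cluster 12819493) encodes the kinase that phosphorylates serine already attached to the selenocysteine transfer RNA. Its values were 6.69, 6.60, 6.87 and 6.60 in high gain-high intake steers and 6.88, 7.21, 7.51 and 6.97 in high gain-low intake steers. They were 6.75, 6.49, 6.75 and 6.95 in low gain-high intake steers and 6.71, 6.93, 7.31 and 6.93 in low gain-low intake steers. All 8 high intake steers lay below the median of the 8 low intake steers, and 4 of them lay below every low intake steer. PSTK averaged 6.71 ± 0.15 in high intake steers and 7.05 ± 0.26 in low intake steers (SD, n = 8 each), a difference of -0.34 (standard error 0.13, 95% interval -0.61 to -0.08) or 0.788 times the low intake level. The unadjusted p was 0.0151 and the adjusted p 0.998 in limma, and the exact permutation p was 0.00482 (two-sided). The clusters called lower at high intake made up 1.64% of all. The array sets gave -0.36 (set 1) and -0.32 (set 2), and exchanging steers only within a set gave an exact permutation p of 0.00287. With array set as a block, the intake effect was -0.37 (unadjusted p = 0.00876 in limma), where 1 of 10 genes was called against 3.66% of all clusters.

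Among the groups, PSTK averaged 6.69 ± 0.13 in high gain-high intake, 7.14 ± 0.28 in high gain-low intake, 6.74 ± 0.19 in low gain-high intake and 6.97 ± 0.25 in low gain-low intake steers (SD, n = 4 each). The intake difference was -0.45 among high gain steers and -0.23 among low gain steers, but the difference between these was not called (interaction -0.22, standard error 0.25, unadjusted p = 0.399 in limma). In the high gain steers the intake groups did not overlap, which was the case in this direction for 0.900% of all clusters. The unadjusted p of that pair was 0.0220 in limma (2.44% of all clusters called), the adjusted p was 1.00, and the exact permutation p was 0.0286, the smallest that 4 against 4 allow. The high gain-low intake group was also called against the low gain-high intake group (0.41, unadjusted p = 0.0371 in limma, 3.54% of all clusters called, exact permutation p = 0.0571), with overlap. Neighbours in the order of the 4 means were not called: high gain-low intake against low gain-low intake differed by 0.17 (exact permutation p = 0.429), and low gain-high intake against low gain-low intake by -0.23 (exact permutation p = 0.286). The PSTK signal was dim, with a lower mean in 40.4% of all clusters. The gain effect of PSTK was 0.06 (95% interval -0.20 to 0.33).

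SEPSECS (transcript cluster 12874432) encodes the synthase that takes the phosphorylated product of PSTK and converts it to selenocysteine with selenophosphate. Its values were 10.80, 10.55, 10.89 and 10.77 in high gain-high intake steers and 10.99, 10.33, 10.80 and 10.30 in high gain-low intake steers. They were 11.22, 11.20, 10.84 and 11.05 in low gain-high intake steers and 11.15, 11.08, 11.13 and 10.79 in low gain-low intake steers. The 8 high gain steers all lay below the median of the 8 low gain steers, with 4 of them below every low gain steer. SEPSECS averaged 10.68 ± 0.26 in high gain steers and 11.06 ± 0.16 in low gain steers (SD, n = 8 each), a difference of -0.38 (standard error 0.13, 95% interval -0.65 to -0.11) or 0.770 times the low gain level. The unadjusted p was 0.00896 and the adjusted p 1.00 in limma, and the exact permutation p was 0.00264 (two-sided). The clusters called lower at high gain made up 2.29% of all. The difference was -0.43 in array set 1 and -0.22 in set 2, with an exact permutation p of 0.00223 when steers were exchanged within sets. With array set as a block it was -0.33 (unadjusted p = 0.0133 in limma), where 1 of 10 genes was called against 5.24% of all clusters.

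SEPSECS averaged 10.76 ± 0.14 in high gain-high intake, 10.60 ± 0.34 in high gain-low intake, 11.08 ± 0.17 in low gain-high intake and 11.04 ± 0.17 in low gain-low intake steers (SD, n = 4 each). The high gain-low intake group, which held the lowest values of all 16 steers, was called against both low gain groups. It differed by -0.47 from low gain-high intake (unadjusted p = 0.0179 in limma, exact permutation p = 0.0571) and by -0.43 from low gain-low intake (unadjusted p = 0.0280 in limma, 3.66% of all clusters called, exact permutation p = 0.0857), and it overlapped both. High gain-high intake against low gain-high intake differed by -0.32, which was not called (unadjusted p = 0.0918 in limma, exact permutation p = 0.0571). The intake effect of SEPSECS was 0.10 (95% interval -0.17 to 0.36) and the interaction 0.11 (95% interval -0.43 to 0.65). Of 60 pairs of groups over the 10 genes, 4 were called, 2 in PSTK and 2 in SEPSECS. The pairings concerned were called in 2.44% to 3.66% of all clusters. Both genes were among those the study had called on these arrays, and the pairs share groups, so this count is no independent result. Of 7 Kupffer cell or macrophage markers, 2 were called over the 4 groups, against 2.33% of all clusters. For gain, intake and the interaction 1 each was called, against 3.48%, 2.86% and 2.81% of all clusters. The mean of the list overlapped between all groups and ranged from 9.36 to 11.16 in high gain-high intake, 9.38 to 11.19 in high gain-low intake, 9.49 to 11.36 in low gain-high intake and 10.39 to 11.55 in low gain-low intake. The difference of the list mean was -0.40 (high minus low gain), and its part in the SEPSECS result was not tested. Among the marker lists of other cell types this difference ran from -0.22 (T or NK cell) to 0.08 (cholangiocyte). In those lists, 1 stellate cell or fibroblast marker was called for intake and 1 T or NK cell marker for the interaction.

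**Figure D2:**
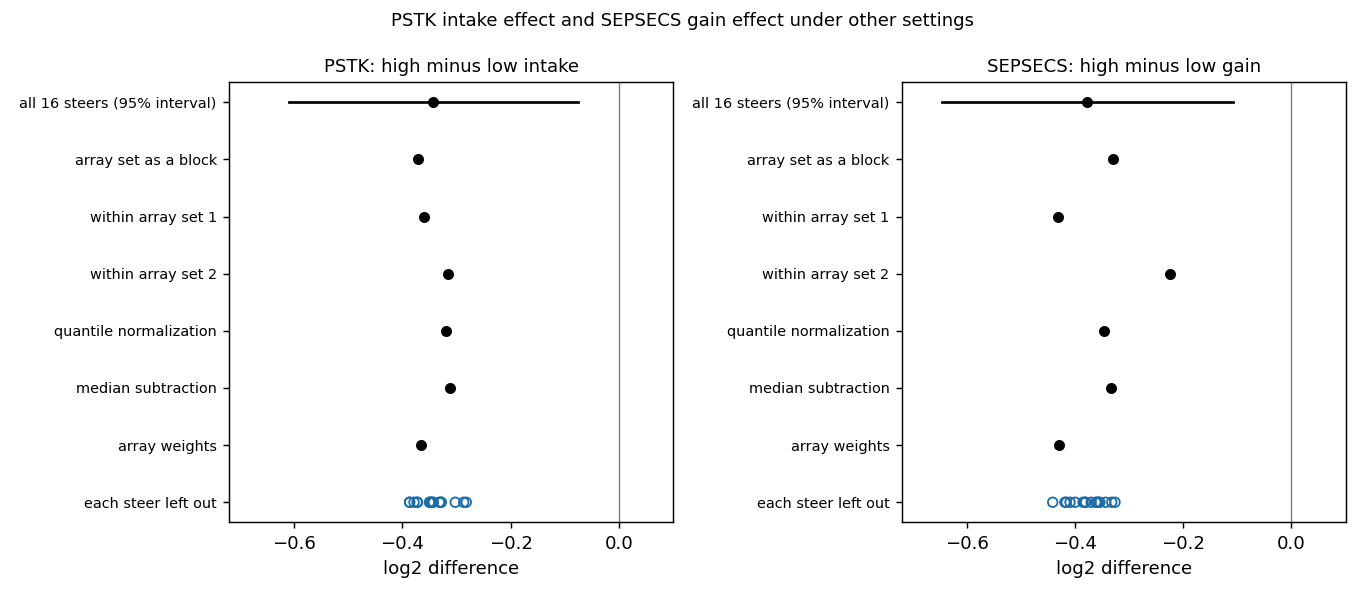
The PSTK difference between high and low intake and the SEPSECS difference between high and low gain (x axis, log2) under the settings named on the y axis, with the 95% interval for all 16 steers and 1 open circle for each steer left out in turn. All values are below 0, between -0.39 and -0.28 for PSTK and between -0.44 and -0.33 for SEPSECS when 1 steer was left out.

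Both effects kept their sign and their nominal call in all 16 fits that left out 1 steer. The largest p was 0.0378 for PSTK, without low gain-low intake steer 3, and 0.0219 for SEPSECS, without high gain-low intake steer 4 (limma, unadjusted). Over the 4 groups as a whole, the 2 genes lay on either side of the threshold depending on the test. For PSTK the F test gave p = 0.0736 in limma, 0.0430 in the unmoderated F that the study used and 0.0369 by exact permutation. The unadjusted p of PSTK in limma was 0.146 after quantile normalization and 0.166 after median subtraction, and 0.0462 to 0.191 when each steer was left out in turn. For SEPSECS it gave p = 0.0515 in limma, 0.0301 in the unmoderated F and 0.0293 by exact permutation. In limma the SEPSECS p was 0.0183 with array weights, 0.0847 with an intensity trend and 0.0152 to 0.130 without 1 steer. The unmoderated F called 2 of the 10 genes, against 2.72% of all clusters, and the fit with array set as a block also called 2, against 4.15%. In limma, the block fit gave PSTK an unadjusted p of 0.0460 and SEPSECS one of 0.0464. With the unmoderated F and with the block, the adjusted p was 0.985 or higher for both genes. The lowest adjusted p of any fit was 0.732 for both, with array weights in limma.

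The selenophosphate synthetases supply or accompany this reaction. SEPHS2, which makes selenophosphate and is itself a selenoprotein, had group means of 11.30 ± 0.35 in high gain-high intake, 11.14 ± 0.38 in high gain-low intake, 11.22 ± 0.35 in low gain-high intake and 11.01 ± 0.11 in low gain-low intake. Its intake effect was 0.18 (95% interval -0.16 to 0.52) and its gain effect 0.11 (95% interval -0.23 to 0.45), neither of them called. SEPHS1, a relative that does not carry selenocysteine and whose part in the cell is less clear, had means of 8.54 ± 0.05, 8.31 ± 0.38, 8.33 ± 0.33 and 8.44 ± 0.17 in the same order of groups. Its interaction of 0.35 (95% interval -0.26 to 0.95) was not called, and its gain and intake effects were 0.04 and 0.06. Of the 16 SEPHS1 values, 4 were equal to every deposited digit, at 8.52, in high gain-high intake steers 2 and 3, high gain-low intake steer 4 and low gain-high intake steer 3, all of array set 2. Equal values in 4 or more steers occurred in 0.915% of all clusters and in none of the other 9 genes.

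The decoding factors bring selenocysteine to the ribosome. EEFSEC, the elongation factor that carries the loaded transfer RNA, had means of 6.96 ± 0.42 in high gain-high intake, 7.11 ± 0.34 in high gain-low intake, 6.80 ± 0.19 in low gain-high intake and 6.84 ± 0.29 in low gain-low intake, and a gain effect of 0.21 (95% interval -0.14 to 0.55). SECISBP2, which binds the insertion element of selenoprotein messages, had the smallest spread within groups of the 10 genes (pooled SD 0.19). Its values were 9.67, 9.61, 9.43 and 9.42 in high gain-high intake, 9.38, 9.69, 9.59 and 9.81 in high gain-low intake, 9.75, 9.45, 9.25 and 9.09 in low gain-high intake and 9.48, 9.37, 9.46 and 9.24 in low gain-low intake steers. High gain steers averaged 9.57 ± 0.15 and low gain steers 9.39 ± 0.20 (SD, n = 8 each), with overlap, a difference of 0.19 (95% interval -0.06 to 0.43) in the opposite direction to SEPSECS. It was not called over all steers (unadjusted p = 0.129 in limma, exact permutation p = 0.0572). The array sets gave 0.08 and 0.39, exchange of steers within sets gave an exact permutation p of 0.0198, and the block fit gave 0.23 (unadjusted p = 0.0535 in limma). Without low gain-high intake steer 1, the highest of its group, the gain difference was 0.25 (unadjusted p = 0.0414 in limma). The gain difference of SECISBP2 was called in 1 of 16 fits without 1 steer and in 0 of 7 processing alternatives.

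**Figure D3:**
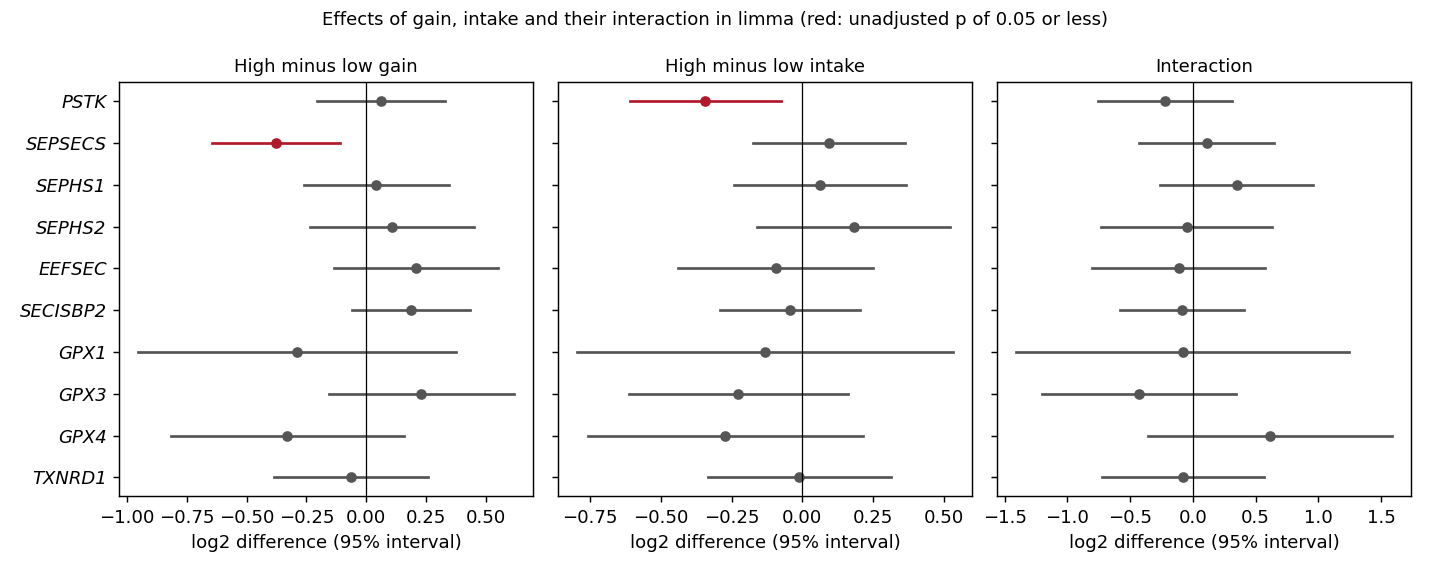
Difference in log2 value (x axis) with its 95% interval in limma for each of the 10 genes (y axis), for high minus low gain, high minus low intake and their interaction, on separate x scales. In red are PSTK for intake (-0.34) and SEPSECS for gain (-0.38), the 2 of 30 effects whose unadjusted p was 0.05 or less.

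None of the 4 selenium-containing enzymes was called for gain, intake or their interaction. The pooled SD within groups was 0.29 for TXNRD1, 0.37 for GPX3, 0.49 for GPX4 and 0.69 for GPX1, against 0.19 to 0.32 for the synthesis and decoding genes. Intervals for the glutathione peroxidases were correspondingly wide and include differences larger than those of PSTK and SEPSECS. Among the synthesis and decoding genes, the intervals of EEFSEC for gain and SEPHS2 for intake, given above, also include differences of larger size. GPX1 encodes the main glutathione peroxidase of the cytosol. It measured 12.90, 12.92, 12.62 and 13.28 in high gain-high intake, 13.43, 13.82, 12.05 and 13.11 in high gain-low intake, 13.46, 14.40, 12.51 and 12.67 in low gain-high intake and 13.73, 13.45, 13.91 and 12.32 in low gain-low intake steers. Within the last 3 groups, every steer of array set 1 was above every steer of array set 2 of the same group. GPX1 averaged 12.69 ± 0.41 in set 2 and 13.64 ± 0.44 in set 1 (SD, n = 8 each), and it was lower in set 2 by -0.97 (standard error 0.23, adjusted p = 0.00746 in limma with group in the model). It was the only one of the 10 genes whose sets differed at an adjusted p below 0.05, against 29.8% of all clusters and 25.3% that were lower in set 2. The sets were formed from medians of the same arrays, so this is a description and not an independent test. The gain effect of GPX1 was -0.29 (95% interval -0.95 to 0.37) over all steers and -0.05 with array set as a block.

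GPX4 reduces lipid hydroperoxides within membranes and protects cells from ferroptosis. It measured 10.44, 10.72, 9.54 and 10.87 in high gain-high intake, 10.40, 10.44, 9.94 and 10.66 in high gain-low intake, 11.01, 10.80, 9.53 and 10.33 in low gain-high intake and 10.81, 11.39, 10.75 and 11.04 in low gain-low intake steers. The high gain-low intake steers did not overlap the low gain-low intake steers, as was the case in this direction for 1.41% of all clusters. That pair averaged 10.36 ± 0.30 and 10.99 ± 0.29 (SD, n = 4 each), a difference of -0.64 that was not called (unadjusted p = 0.0673 in limma, exact permutation p = 0.0286, the smallest possible). Over all steers the gain effect was -0.33 (95% interval -0.82 to 0.16) and the interaction 0.61 (95% interval -0.36 to 1.59). Steer 3 of each high intake group was the lowest of its group and moved both values. Without that of the low gain-high intake group, the gain effect was -0.48 (unadjusted p = 0.0339 in limma) and the interaction 0.32. Without that of the high gain-high intake group they were -0.19 and 0.90 (unadjusted p = 0.0467 in limma for the interaction). The gain effect and the interaction of GPX4 were each called in 1 of 16 fits without 1 steer and in 0 of 7 processing alternatives.

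GPX3 encodes the glutathione peroxidase of plasma, which is made chiefly in the kidney, and 45.8% of all clusters had a lower mean in these livers. Its values were 7.23, 6.50, 7.78 and 6.55 in high gain-high intake, 7.89, 7.52, 7.30 and 7.11 in high gain-low intake, 6.90, 6.96, 7.16 and 6.96 in low gain-high intake and 6.68, 6.96, 7.20 and 7.19 in low gain-low intake steers. The high gain-high intake group alone covered almost the full range of the other groups, and all groups overlapped it. The gain effect was 0.23 (95% interval -0.16 to 0.62) and the intake effect -0.23 (95% interval -0.61 to 0.16), neither of them called. With steer 3 of the high gain-high intake group left out, the intake effect was -0.35 (unadjusted p = 0.0390 in limma) and the interaction -0.69 (unadjusted p = 0.0442 in limma). The intake effect and the interaction of GPX3 were each called in 1 of 16 fits without 1 steer and in 0 of 6 processing alternatives. TXNRD1, the cytosolic reductase that keeps thioredoxin reduced, had group means between 9.91 and 10.02, a gain effect of -0.06 (95% interval -0.39 to 0.26) and an intake effect of -0.01 (95% interval -0.33 to 0.31). It was the least different of the 10 genes over the 4 groups (unadjusted p = 0.970 in limma, exact permutation p = 0.965).

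Over the 10 genes, effects ran both ways. The median gain effect was 0.05, against -0.04 over all clusters, with 6 of 10 above 0. The median intake effect was -0.07 against -0.03, with 3 of 10 above 0, and the median interaction -0.08 against -0.04, with 3 of 10 above 0. Within array sets of 8 steers, none of the 90 correlations between members (every pair in each of 2 sets) passed correction, the lowest Benjamini-Hochberg p of the exact permutation test being 0.175. PSTK and SEPSECS had a Pearson's r of -0.45 (exact permutation p = 0.273, Spearman's rho -0.36 with p = 0.389) in set 1 and 0.10 (exact permutation p = 0.776, Spearman's rho 0.17 with p = 0.703) in set 2. The pair with the lowest exact p was SEPHS2 and GPX3 in set 2, with r = -0.84 (exact permutation p = 0.00340, adjusted p = 0.175) and rho = -0.90 (exact permutation p = 0.00456, adjusted p = 0.277). The r of this pair was -0.56 without the 2 steers farthest from the SEPHS2 median and -0.31 in set 1. The largest Pearson's r in size was that of SEPSECS and SECISBP2 in set 2, with r = -0.87 (exact permutation p = 0.00389, adjusted p = 0.175) and rho = -0.69 (exact permutation p = 0.0694, adjusted p = 0.367). This r was -0.56 without the 2 steers farthest from the SEPSECS median, and it was -0.40 in set 1, where it turned to 0.71 without such steers.

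The named genes whose pattern over steers was most like that of PSTK, by the lower of the 2 Pearson's r within the array sets (8 steers each, 18789 named clusters compared), were SLC44A4 (0.82), OR5M13D (0.81) and METTL18 (0.78). For SEPSECS they were CEBPA (0.86), KBTBD7 (0.86) and SLCO4C1 (0.83). These are descriptions, since the best of so many clusters are bound to be high with 8 steers a set.

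A further 58 genes of selenium supply, selenoproteins, glutathione and thioredoxin were all measured, by 59 clusters, and gave 0 calls over the 4 groups in limma. There were 2 calls for gain (3.48% of all clusters called), 2 for the interaction (2.81%) and 0 for intake (2.86%). With 59 clusters, these counts are near the share called over the whole array and are no result about the lists, and the called genes are given as descriptions. The 13 clusters for selenium supply and for further factors of selenocysteine transfer RNA and its decoding, among them SCLY, TRNAU1AP and SARS1, gave 0 calls in any of these contrasts. Among the 19 clusters listed as other selenoproteins, a list that did not hold GPX6, DIO1 was the only one called. It encodes the deiodinase that converts thyroxine to active thyroid hormone. DIO1 measured 16.43, 15.85, 16.16 and 16.49 in high gain-high intake, 17.02, 16.92, 15.76 and 16.57 in high gain-low intake, 14.79, 16.20, 17.23 and 14.82 in low gain-high intake and 15.25, 15.39, 16.22 and 15.28 in low gain-low intake steers. Low gain-high intake steer 3 was the highest of all 16, while the other 7 low gain steers lay below the median of the high gain steers. DIO1 was higher by 0.75 in high gain steers (standard error 0.32, unadjusted p = 0.0325 and adjusted p = 1.00 in limma, exact permutation p = 0.0448), with 1.19% of all clusters called higher at high gain. The call was lost without any 1 of 9 of the 16 steers (p up to 0.0764).

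Among 12 clusters of further glutathione peroxidases and glutathione enzymes, GPX6 was called for gain and GPX8 for the interaction. GPX6, a peroxidase known from the olfactory lining, was at the dim end of the array, with 4.67% of all clusters lower. It measured 4.90, 4.69, 4.99 and 4.96 in high gain-high intake, 5.18, 5.40, 4.94 and 4.94 in high gain-low intake, 5.48, 5.18, 5.14 and 6.15 in low gain-high intake and 5.42, 5.20, 5.32 and 5.17 in low gain-low intake steers. The high gain-high intake steers did not overlap either low gain group, which was so in this direction for 1.17% of all clusters against low gain-high intake and 1.20% against low gain-low intake. GPX6 was lower by -0.38 in high gain steers (standard error 0.14, unadjusted p = 0.0173 and adjusted p = 1.00 in limma, exact permutation p = 0.00668), and its call was kept in all 16 fits without 1 steer.

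GPX8, a peroxidase of the endoplasmic reticulum without selenocysteine, measured 10.05, 8.46, 8.56 and 8.29 in high gain-high intake, 7.22, 7.34, 8.07 and 8.25 in high gain-low intake, 8.12, 8.48, 6.83 and 6.93 in low gain-high intake and 8.75, 7.51, 8.22 and 7.61 in low gain-low intake steers. Its interaction was 1.55 (standard error 0.63, unadjusted p = 0.0264 and adjusted p = 1.00 in limma, exact permutation p = 0.0454), and the call was lost without any 1 of 6 steers. Among 15 clusters of thioredoxins, glutaredoxins and peroxiredoxins, GLRX5, a mitochondrial glutaredoxin of iron-sulfur cluster assembly, was called for the interaction. Its values were 11.06, 11.50, 10.22 and 11.73 in high gain-high intake, 10.41, 10.15, 10.47 and 10.56 in high gain-low intake, 10.91, 10.92, 10.17 and 10.39 in low gain-high intake and 11.21, 10.66, 10.44 and 11.88 in low gain-low intake steers. The interaction was 1.18 (standard error 0.47, unadjusted p = 0.0244 and adjusted p = 1.00 in limma, exact permutation p = 0.0287), and the call was lost without any 1 of 4 steers. Both interactions were positive, the groups high or low in both traits being the higher ones, as were those of 1.15% of all clusters at this threshold and in this direction.

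**Figure D4:**
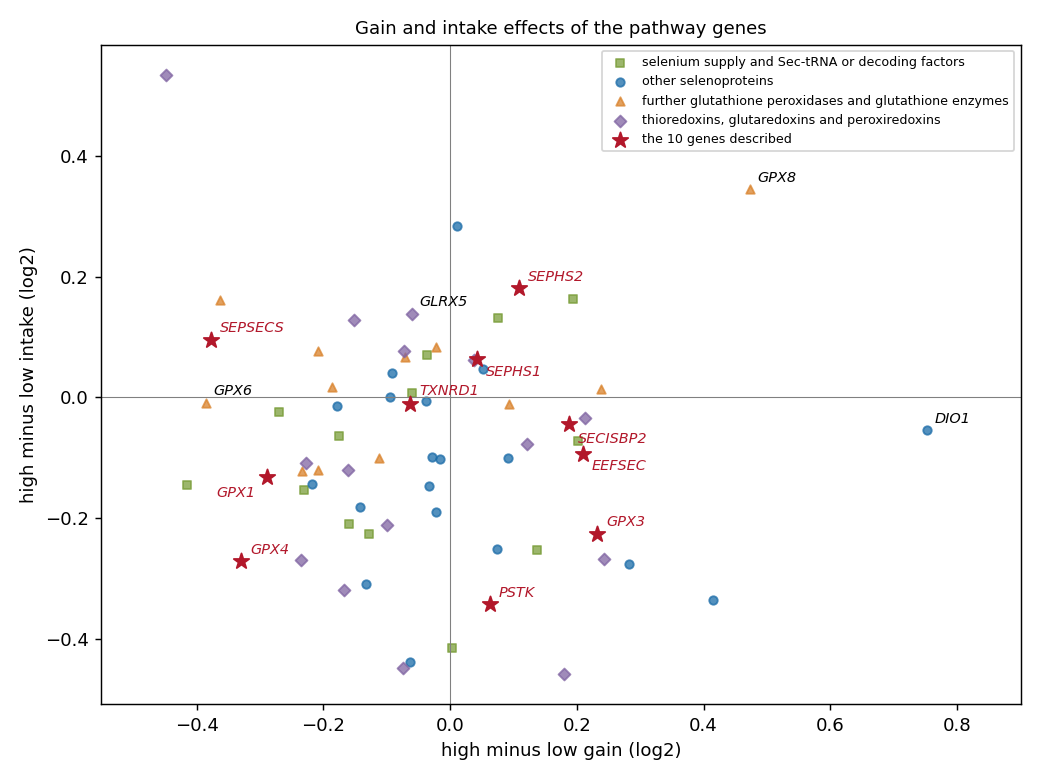
Gain effect (x axis, high minus low, log2) against intake effect (y axis, high minus low, log2) for the 10 genes (stars) and the 59 clusters of the 58 further pathway genes, by list. PSTK lies at -0.34 on the intake axis, SEPSECS at -0.38 and DIO1 at 0.75 on the gain axis. Both axes come from the same 16 steers.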

How the data were processed

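Expression was measured in liver of 16 steers, 1 array each. The authors deposited log2 values per transcript cluster, which they computed with RMA after GC count normalization and Signal Space Transformation. The submitters' processing notes name Affymetrix Expression Console and Transcriptome Analysis Console. Neither a version nor a genome build was given in the sources used here, and no coordinates were used. Groups came from the phenotype labels. Symbols came from the platform annotation (18790 clusters with 1 symbol, 385 with several, 7598 with none), and 18003 were matched to a current symbol by gene identifier. All columns were mapped to a steer, and 0 were left unused.

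With R 4.3.3 and limma 3.58.1, 1 mean per group was fitted to the values as deposited, with no filter, and contrasts for gain, intake and their interaction were taken (high minus low). The Benjamini-Hochberg adjustment ran over all 26773 clusters. Because no adjusted p in these contrasts was below 0.05, "called" means an unadjusted p of 0.05 or less, the nominal threshold of the study. Exact permutation tests were two-sided, over 2627625 partitions into 4 groups, 12870 choices of 8 of 16 steers, or 70 splits of a pair of groups (Python 3.11.15, numpy 2.4.6, scipy 1.17.1). The fit was tested on simulated data. The array-set block, 2 other scalings, array weights, an intensity trend with a robust prior, omission of the dim part of the array, the unmoderated F of the study and omission of each steer were tried as alternatives. The 10 genes and the gene lists were chosen with earlier results of these data known. Genes named from the pathway lists are those called in any contrast, and those named for likeness are the 3 closest. The number of arrays, 4 per group, limits the precision of every value. The study reported RNA integrity that varied between samples, but the labels give no value per steer, so it entered no fit.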

Additional observations from a re-analysis of the deposited data

Results flagged for a closer look

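In 4 groups, 1 steer lay far from the other 3 by Dixon's criterion at the 95% level. Chance alone marks about 1 in 20 groups, and 2 of 40 groups of the 10 genes and 2 of 16 groups of the named pathway genes were marked. SEPHS1 was 8.63 in high gain-high intake steer 4, where the other 3 values of that group rounded to 8.52. Of these, the values of steers 2 and 3 were the equal ones described above. The flagged value lay within the range of all steers for SEPHS1, 7.98 to 8.74. EEFSEC was 7.61 in high gain-low intake steer 2, where the lowest of the group was 6.89 and the next to highest belonged to steer 4. DIO1 was 16.2 in low gain-low intake steer 3, against 15.25 to 15.39 in the rest of its group. GPX8 was 10.05 in high gain-high intake steer 1, against 8.29 to 8.56 in the rest of its group.

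For GPX8 and GLRX5 the gain effect differed between high and low intake by a nominal test of the interaction. The difference was 1.55 for GPX8 (unadjusted p = 0.0264, adjusted p = 1.00 in limma) and 1.18 for GLRX5 (unadjusted p = 0.0244, adjusted p = 1.00 in limma).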

How the results depend on the processing

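Under 7 processing alternatives and 16 fits that left out 1 steer, none of the results reversed while called. PSTK for intake was called in all 6 alternatives that measured it (-0.37 to -0.31) and SEPSECS for gain in all 7 (-0.43 to -0.33). Of the 10 genes, 0 were called over the 4 groups in the fit reported, 2 with array set as a block and 1 with array weights. The count was 1 after median subtraction, 2 with the unmoderated F and 0 to 2 when 1 steer was left out. Of all 26773 clusters, the F called 624, 1111, 1597, 734, 729 and 489 to 945 in the same order. The count for gain ran from 1 to 2 without 1 steer, where 668 to 1361 of all clusters were called. The count for intake was 0 with the dim part of the array omitted, because PSTK itself was among the 3 genes dropped. Without 1 steer it was 1 to 2, where 597 to 1390 of all clusters were called. The count for the interaction was 0 to 2 without 1 steer, where 575 to 913 of all clusters were called.

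Of the 59 pathway clusters, the count over the 4 groups was 1 with array set as a block and 2 with array weights. It was 1 each with an intensity trend, median subtraction, the unmoderated F and quantile normalization, and 0 to 2 without 1 steer. An intensity trend called 646 of all clusters and quantile normalization 778, and the other counts over all clusters are given above. For gain it was 5 with array weights, where 2243 of all 26773 clusters were called. With the dim part omitted it was 1, where 453 of 13387 were called. It was 1 in the unmoderated test (937 of all clusters) and 1 to 3 without 1 steer (668 to 1361). For intake it was 3 with array weights (1452 of all clusters), 1 after median subtraction (877) and 1 in the unmoderated test (798). After quantile normalization it was 2 (928), and without 1 steer 0 to 3 (597 to 1390). For the interaction it was 1 after quantile normalization (748 of all clusters), where GLRX5 was not called. Without 1 steer it was 0 to 3 (575 to 913). These counts are no result about the lists. DIO1 was not called for gain in the unmoderated test. The cause of these changes was not tested, apart from the omitted clusters. The study harvested 1 steer of each group per day, but the labels give no harvest day or other pairing of steers across groups. No fit or permutation could therefore take harvest day into account, and no paired analysis was possible. The replicate numbers are in accession order.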
